A study of Mus musculus with 2 samples.

Results

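The 9 genes described here are members of the Bcl2 family and targets of the transcription factor p53: Bcl2, Bcl2l1, Mcl1, Bcl2a1b, Bcl2l11, Pmaip1, Bax, Cdkn1a and Mdm2. They were chosen by symbol from the 55487 genes of the expression library, and all 9 were detected. The mice were of the C57BL/6 Foxp3.Cre-YFP strain and are called Treg-bmal1WT or Treg-bmal1KO. Their CD4+ T cells were taken from visceral adipose tissue (VAT) and from spleen at zeitgeber times ZT0 or ZT12, where zeitgeber time counts the hours of the light cycle. All mice carry Cre with YFP under Foxp3 control, so deletion of Bmal1 is directed to Foxp3-expressing regulatory T cells (Tregs). By this design the other T cells should keep the gene, which was not tested here. The labels give 34000 sorted VAT cells and 32000 sorted splenic cells, which were tagged with hashtag antibodies and pooled into 1 expression library with 1 matching hashtag library. Age and the number of animals are not stated in the labels. The hashtags carry numbers only. Which tissue, genotype and time each one marks was not worked out here, so tissues, genotypes and times were not compared. Hashtags of unknown origin are not replicates, and all groups lie in 1 library, so no test was run and no p-value is given.

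Cells die by the mitochondrial route when Bax or its relative Bak1 opens the outer mitochondrial membrane. Bcl2, Bcl-xL (the product of Bcl2l1), Mcl1 and A1 (the product of Bcl2a1b) hold these effectors in check, and BH3-only proteins such as Bim (Bcl2l11) and Noxa (Pmaip1) bind and neutralise the guardians. p53 is known to induce Bax, Pmaip1, Cdkn1a and Mdm2. Cdkn1a encodes p21, an inhibitor of cyclin-dependent kinases, and Mdm2 marks p53 for degradation. Tregs of VAT are known for the IL-33 receptor ST2, encoded by Il1rl1, and for amphiregulin, encoded by Areg.

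Promoter windows show how differently these genes begin, and the windows of Cdkn1a, Bcl2a1b and Bcl2 are given because these members are among those whose levels differ most between classes in the results that follow, with Bcl2 in the opposite direction to the others. Each window runs from 250 bases before to 50 bases after a RefSeq start (GRCm38.p6), read 5′ to 3′ on the gene's strand. Windows were held for 8 of the 9 members, 12 windows in all, and none is shown for Pmaip1. On mm10, the files place Cdkn1a (ENSMUSG00000023067.14) at chr17:29090979-29100722, Bcl2a1b (ENSMUSG00000089929.1) at chr9:89199273-89207838 and Bcl2 (ENSMUSG00000057329.7) at chr1:106538176-106714290, and each window covers the gene's start and the bases before it, apart from the downstream Cdkn1a window, which lies inside the gene. Capitals mark matches, on either strand, to an AP-1 motif (TGANTCA), the p53 decamer, the kappaB decamer or an E-box (CACGTG), the last being the element that clock proteins including Bmal1 can bind. The upstream Cdkn1a window is chr17:29090729-29091028 on the plus strand and the downstream one chr17:29093519-29093818 on the plus strand. The Bcl2a1b window is chr9:89199023-89199322 on the plus strand, and the Bcl2 window is chr1:106714241-106714540 on the minus strand.
Cdkn1a upstream start: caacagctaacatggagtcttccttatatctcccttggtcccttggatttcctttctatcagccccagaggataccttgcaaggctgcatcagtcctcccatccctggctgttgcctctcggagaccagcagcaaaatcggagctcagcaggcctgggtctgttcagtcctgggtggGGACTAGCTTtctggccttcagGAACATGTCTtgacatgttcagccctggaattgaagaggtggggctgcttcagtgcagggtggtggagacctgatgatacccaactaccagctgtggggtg
Cdkn1a downstream start: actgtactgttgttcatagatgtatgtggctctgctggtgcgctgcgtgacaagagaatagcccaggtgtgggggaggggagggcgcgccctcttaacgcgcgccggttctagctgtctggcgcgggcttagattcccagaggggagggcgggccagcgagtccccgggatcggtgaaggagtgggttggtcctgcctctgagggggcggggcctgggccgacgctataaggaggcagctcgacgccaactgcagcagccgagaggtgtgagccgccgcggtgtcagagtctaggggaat
Bcl2a1b: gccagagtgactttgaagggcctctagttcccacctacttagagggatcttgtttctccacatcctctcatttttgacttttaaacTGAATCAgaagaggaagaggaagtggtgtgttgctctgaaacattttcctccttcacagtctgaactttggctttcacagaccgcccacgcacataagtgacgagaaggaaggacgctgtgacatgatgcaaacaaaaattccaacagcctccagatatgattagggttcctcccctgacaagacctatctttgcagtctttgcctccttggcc
Bcl2: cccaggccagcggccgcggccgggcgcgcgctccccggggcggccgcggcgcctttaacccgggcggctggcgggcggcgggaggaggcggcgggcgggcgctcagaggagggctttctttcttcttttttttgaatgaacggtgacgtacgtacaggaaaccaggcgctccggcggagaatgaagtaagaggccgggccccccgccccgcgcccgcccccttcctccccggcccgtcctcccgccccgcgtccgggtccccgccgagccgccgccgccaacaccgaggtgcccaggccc

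The upstream Cdkn1a window held 2 matches to the p53 decamer, starting at -73 and -51 from the RefSeq start, and no AP-1 match, and the downstream window held no match to any of the 4 motifs. Bcl2a1b held 1 AP-1 match, at -164. Bcl2 held none of the 4, and 76.0% of its bases were G or C against 46.7% for Bcl2a1b. Among the windows not printed, Bax held 1 p53 decamer at -201 and E-boxes at -9 and 35, Mdm2 held 1 p53 decamer at -186, and 1 of 3 Bcl2l1 windows held a kappaB match at -242. The windows of Mcl1 and Bcl2l11 held no match. Of 32851 windows of the same length, 7.81% held the AP-1 motif, 8.36% the p53 decamer, 8.46% the kappaB decamer and 7.15% the E-box. The motifs do not overlap in the windows shown, and a match is a description of letters, not of binding.

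After hashtags were assigned and cells of low quality removed, 13599 cells remained, of which 13203 passed a T cell gate and 8844 fell into 1 of 6 classes. A cell was called Il1rl1+ when it held a UMI (a counted RNA molecule) of Il1rl1, and otherwise Foxp3+, Klrd1+, Cxcr5+ or Cxcr3+, in that order. Naive-type cells held none of these, no UMI of S100a4, and at least 2 of 6 naive genes. The summed UMIs of a class in a hashtag ran from 56177 in 18 Cxcr5+ cells to 3978522 in 1011 naive-type cells. Levels are given as CPM, the UMIs of a gene in 1000000 UMIs of the sum, with exact Poisson 95% intervals that cover counting error only. A sum with 0 UMIs of a gene was given the limit that 3 counts would set. Classes were compared within each hashtag, where both sides had at least 30 cells, as the log2 ratio of CPM with 0.5 added to each count. In a sum, fewer positive cells and less RNA per cell cannot be told apart.

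The label of ST2 Tregs held in hashtags 1 to 4 and not in hashtags 5 and 6. In hashtags 1 to 4 the 433 to 743 Il1rl1+ cells carried a summed level of 10 VAT Treg markers, among them the gate gene Il1rl1, of 3240 to 4753 CPM, against 241 to 321 CPM in naive-type cells, and Areg at 757 to 1633 CPM. In hashtags 5 and 6 the 160 and 101 Il1rl1+ cells had only 629 and 674 CPM of the same markers, Areg at 40.6 and 54.5 CPM, and naive markers at 2326 and 2167 CPM against 691 to 869 CPM in hashtags 1 to 4. Foxp3 itself was low in Il1rl1+ cells, at 39.1 to 54.2 CPM in hashtags 1 to 4 and at 15.6 and 24.0 CPM in hashtags 5 and 6. Il1rl1+ cells of hashtags 5 and 6 are therefore named by their gate alone, and the ratios of Il1rl1+ cells are also summarised over hashtags 1 to 4. Markers of other lineages were low on both sides. In hashtags 1 to 4, 8 macrophage markers summed to 42.2 to 71.9 CPM in Il1rl1+ cells and 42.5 to 78.0 CPM in naive-type cells, and 5 endothelial markers to 36.9 to 54.0 and 108 to 159 CPM. Markers of B cells (8.26 to 25.9 and 5.83 to 86.1 CPM) and stroma (27.8 to 32.1 and 21.3 to 61.2 CPM) were also low, and in hashtags 5 and 6 the macrophage markers stood at about 105 CPM in Il1rl1+ cells and 58.3 to 62.5 CPM in naive-type cells. Of 4 dendritic cell genes, Ccr9, a gut-homing receptor that T cells also carry, gave nearly all the signal, with 76.3 to 108 CPM in Il1rl1+ cells of hashtags 1 to 4 and 0 to 20.4 CPM in naive-type cells, while Flt3 had no UMI in either class and Siglech at most 1 UMI in a sum.

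Bcl2, the prototype survival factor, was lower in Il1rl1+ than in naive-type cells of every hashtag. In Il1rl1+ cells it stood at 97.9, 73.9, 177, 135, 172 and 240 CPM in hashtags 1 to 6. The naive-type cells of the same hashtags had 312, 454, 350, 530, 221 and 290 CPM. The highest Il1rl1+ level of hashtags 1 to 4, 177 CPM, lay below the lowest naive-type level there, and the gap was narrow in hashtags 5 and 6. The median log2 ratio was -1.33 (range -2.63 to -0.27 over 6 hashtags), with the counting interval below 0 in 5 of 6. In hashtags 1 to 4 alone it was -1.83 (-2.63 to -0.99).

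Foxp3+ cells without Il1rl1 had 129, 182, 147, 152, 342 and 450 CPM of Bcl2. Those of hashtags 1 to 4 lay below every naive-type value, with log2 ratios to naive-type cells between -1.76 and -1.23, and below the Il1rl1+ value only in hashtag 3. In hashtags 5 and 6 the order turned round: Foxp3+ cells had the most Bcl2 of the 6 classes there, and the intervals of both ratios to naive-type cells lay above 0. Cxcr3+ cells, a class marked by a Th1 chemokine receptor, had 228, 276, 310, 360, 165 and 181 CPM, lower than naive-type cells in all 6 hashtags (median log2 ratio -0.51, range -0.72 to -0.18). Over hashtags 1 to 4 the order of medians ran from naive-type (402 CPM) through Cxcr5+ (329 CPM, 2 hashtags), Cxcr3+ (293 CPM) and Klrd1+ (244 CPM, 3 hashtags) to Foxp3+ (150 CPM) and Il1rl1+ (116 CPM). Neighbours in that order overlapped in range, apart from Klrd1+ and Foxp3+ cells, at 216 to 326 and 129 to 182 CPM.

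**Figure D1:**
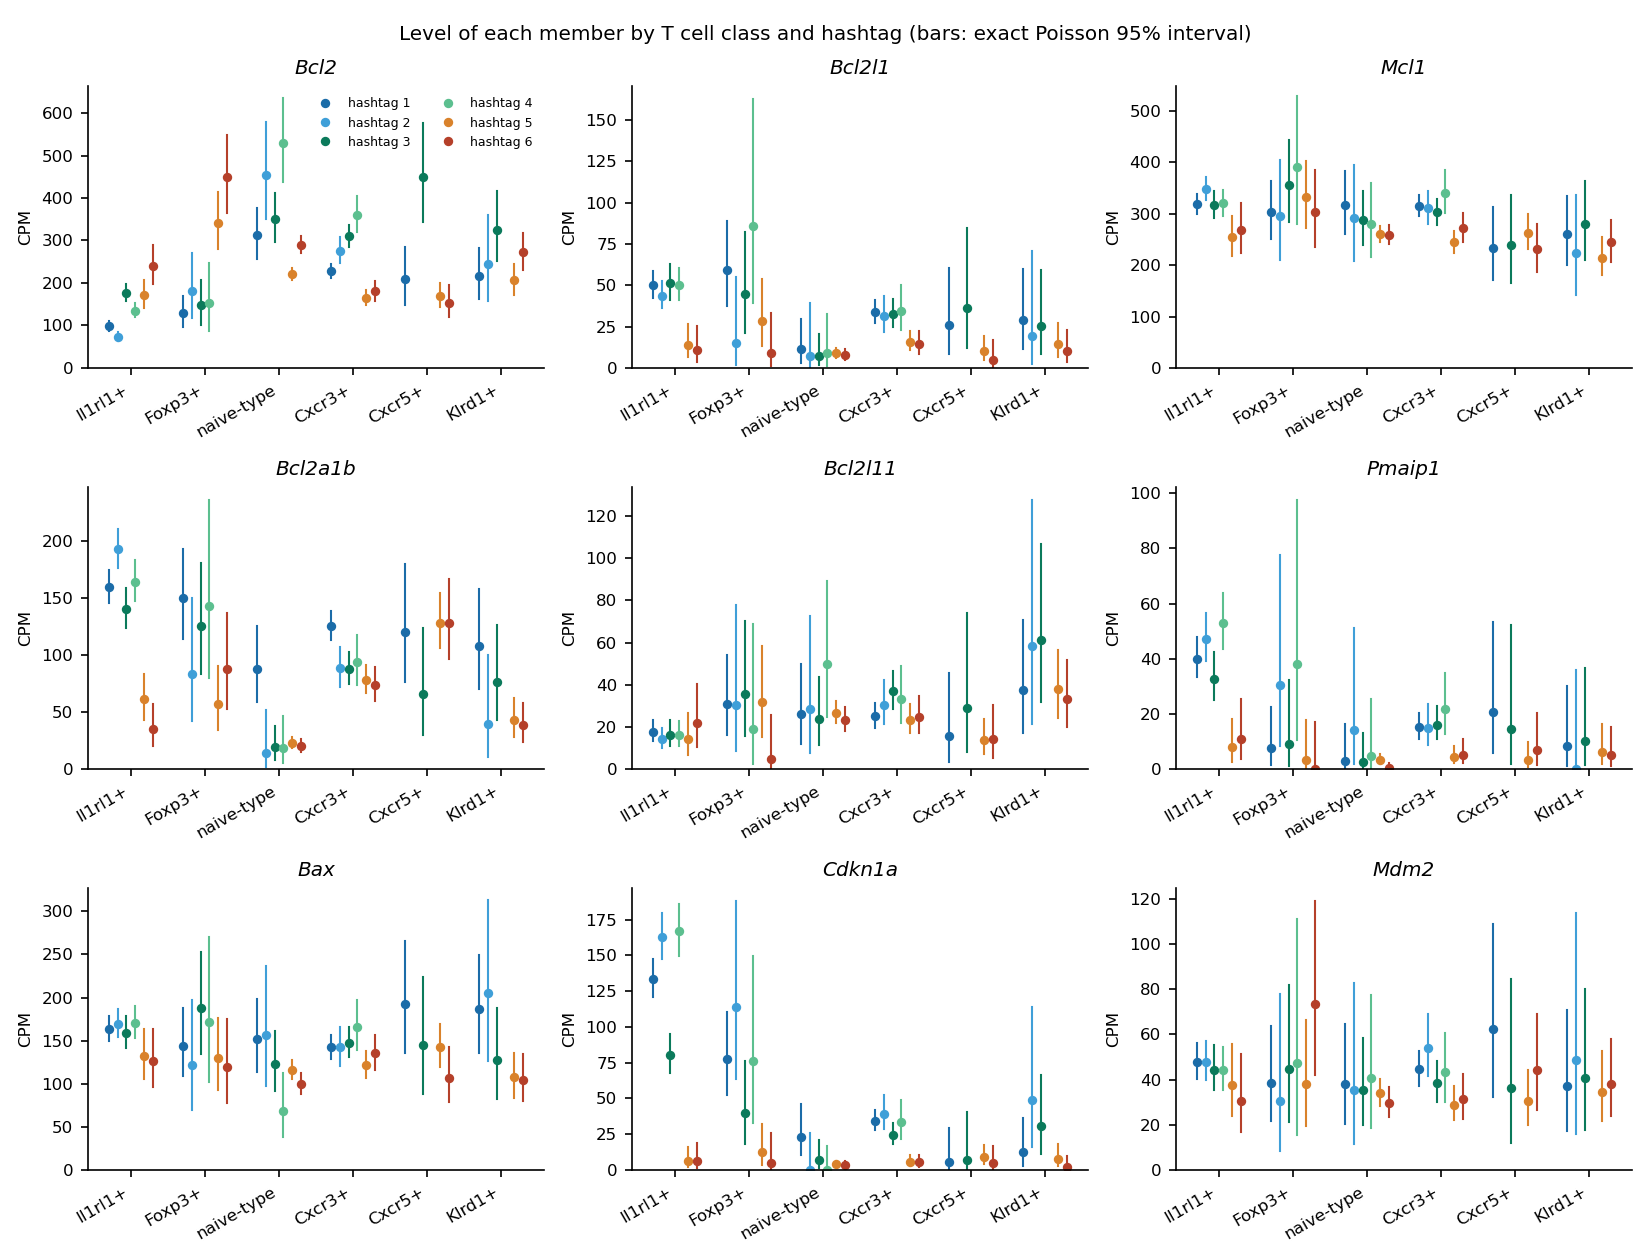
Level of each of the 9 members (vertical axes, CPM from 0) in 6 T cell classes (horizontal axes), 1 point per hashtag with its exact Poisson 95% interval, for sums of at least 30 cells. Cdkn1a is at 80.6 to 167 CPM in Il1rl1+ cells of hashtags 1 to 4 and at 6.24 and 6.54 CPM in hashtags 5 and 6, and Bcl2 is lowest in the Il1rl1+ cells of hashtag 2, at 73.9 CPM.

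Bcl2l1, whose product Bcl-xL is the guardian often found in activated lymphocytes, went the other way from Bcl2. Il1rl1+ cells had 49.9, 43.8, 51.1, 50.03, 14.04 and 10.9 CPM, and naive-type cells 11.7, 7.09, 7.09, 9.06, 8.80 and 7.59 CPM. The ratio was above 1 in all 6 hashtags (median log2 1.99, range 0.63 to 2.64, and 2.10 over hashtags 1 to 4), and its interval lay above 0 in the 4 hashtags where the ST2 Treg markers were present. The naive-type sums of hashtags 2, 3 and 4 held only 1, 3 and 2 UMIs of Bcl2l1. Cxcr3+ cells of hashtags 1 to 4 had 31.4 to 34.5 CPM, below every Il1rl1+ value there (median log2 ratio 0.54), while Foxp3+ cells ranged from 15.2 to 85.6 CPM and overlapped with both.

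Bcl2a1b, which encodes an A1 protein known to be induced by antigen receptor signalling, was higher in all 5 other classes than in naive-type cells of the same hashtag, wherever at least 30 cells allowed the comparison. Il1rl1+ cells had 160, 192, 140, 164, 60.9 and 34.9 CPM. Naive-type cells had 87.5, 14.2, 18.9, 18.1, 22.9 and 19.9 CPM. Naive-type cells of hashtag 1 stood apart, with 30 UMIs in 17 of 110 cells and 6 of them in 1 cell. The median log2 ratio of Il1rl1+ to naive-type cells was 2.11 (0.84 to 3.44) over 6 hashtags and 2.91 over hashtags 1 to 4, and that of Foxp3+ cells 2.23 (0.76 to 2.86) with its interval above 0 in all 6 hashtags. Cxcr5+ cells, marked by the receptor of follicular helper cells, had 128 CPM in each of hashtags 5 and 6, the highest values of Bcl2a1b there. Bcl2a1b has near-identical copies, so its counts are uncertain: over the 6 classes it took 3242 UMIs, Bcl2a1d took 592 and Bcl2a1a took 29.

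Mcl1, a short-lived guardian that T cells need at every stage, differed little. It ranged from 316 to 348 CPM in Il1rl1+ cells and from 281 to 318 CPM in naive-type cells of hashtags 1 to 4, and the interval of the ratio between them included 0 in all 6 hashtags (median log2 0.09, range -0.03 to 0.24, and 0.15 over hashtags 1 to 4). Over all classes and hashtags with at least 30 cells Mcl1 stayed between 215 and 390 CPM. The same sums spread from 73.9 to 530 CPM for Bcl2.

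The 2 BH3-only members differed in opposite directions. Pmaip1 (Noxa, which binds Mcl1 and A1) had 40.1, 47.3, 32.8, 52.9, 7.80 and 10.9 CPM in Il1rl1+ cells, from 122, 121, 59, 109, 5 and 5 UMIs. Naive-type cells had 1, 2, 1, 1, 13 and 1 UMIs, or 2.92, 14.2, 2.36, 4.53, 3.27 and 0.361 CPM. The ratio was at least 2-fold in each hashtag, with intervals such as 1.28 to 9.10 on the log2 scale in hashtag 1 that show how little the naive-type counts fix its size, and in hashtags 2 and 5 the interval included 0. Against Cxcr3+ cells, where counts were larger, Pmaip1 was higher in Il1rl1+ cells in all 6 hashtags (median log2 1.17, range 0.90 to 1.64, and 1.33 over hashtags 1 to 4). Bcl2l11 (Bim, the BH3-only protein that removes T cells deprived of cytokine) had 17.7, 14.1, 16.1, 16.0, 14.04 and 21.8 CPM in Il1rl1+ cells and 25.0, 30.5, 36.8, 33.2, 23.2 and 24.6 CPM in Cxcr3+ cells. It was lower in Il1rl1+ cells in each hashtag (median log2 -0.86, range -1.18 to -0.13, and -1.09 over hashtags 1 to 4), with the interval below 0 in 3. Against naive-type cells the median was -0.74 (-1.68 to -0.03), and -0.90 over hashtags 1 to 4, with the interval below 0 in only 1 of 6. The naive-type sums of hashtags 1 to 4 held 9, 4, 10 and 11 UMIs of Bcl2l11. Bcl2l11 was highest in Klrd1+ cells, at 37.3, 58.6, 61.1, 37.9 and 33.0 CPM in hashtags 1, 2, 3, 5 and 6, above the naive-type cells of the same hashtag every time (median log2 0.54, range 0.51 to 1.36) although the interval excluded 0 in only 1 of 5.

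Bax, the effector, was slightly higher in Il1rl1+ than in naive-type cells of each hashtag. Il1rl1+ cells had 164, 170, 159, 171, 133 and 126 CPM and naive-type cells 152, 156, 123, 67.9, 116 and 99.8 CPM. The median log2 ratio was 0.28, and 0.23 over hashtags 1 to 4, and its interval excluded 0 only in hashtag 4, where naive-type cells had 15 UMIs of Bax.

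Cdkn1a differed widely between classes in hashtags 1 to 4 and little in hashtags 5 and 6. In Il1rl1+ cells of hashtags 1 to 4 it had 134, 163, 80.6 and 167 CPM, and in hashtags 5 and 6 it had 6.24 and 6.54 CPM, from 4 and 3 UMIs. Naive-type cells had 23.3, 0, 7.09, 0, 4.02 and 3.25 CPM. In hashtags 2 and 4, where 47 and 69 naive-type cells held no UMI of Cdkn1a, Il1rl1+ cells were at least 7.67-fold and at least 12.3-fold higher, taking 3 counts per sum as the limit. In hashtags 1 and 3 the log2 ratios were 2.43 and 3.29, the latter from 3 naive-type UMIs (interval 1.93 to 5.80). With the 2 bounds in place the median log2 ratio over 6 hashtags was 2.69 (0.76 to 3.62), and over hashtags 1 to 4 it was 3.11. In hashtags 5 and 6 the intervals included 0.

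Foxp3+ cells had 77.3, 114, 40.1, 76.1, 12.7 and 4.59 CPM of Cdkn1a, and Cxcr3+ cells 34.2, 39.2, 24.6, 33.2, 5.79 and 5.22 CPM. Within each of hashtags 1 to 4 the order of these classes by CPM from high to low was therefore Il1rl1+, Foxp3+, Cxcr3+ and naive-type. Each step had overlapping counting intervals in at least 1 hashtag. Il1rl1+ and Foxp3+ cells overlapped in hashtag 2 (148 to 179 and 63.7 to 188 CPM). Foxp3+ and Cxcr3+ cells did so in hashtag 3 (18.4 to 76.2 and 18.0 to 32.8 CPM), and Cxcr3+ and naive-type cells in hashtag 1 (27.9 to 41.6 and 10.1 to 46.0 CPM). In hashtags 1 to 4 Il1rl1+ cells exceeded Cxcr3+ cells by 2.001 on the log2 scale (range 1.70 to 2.31), with intervals above 0 in all 4, and Foxp3+ cells by 0.85 (0.47 to 1.05), with intervals above 0 in 3. No class of hashtags 5 and 6 with at least 30 cells exceeded 12.7 CPM. Single cells held up to 20 UMIs of Cdkn1a, and that cell gave 4.91% of the Cdkn1a UMIs of the Il1rl1+ cells of hashtag 1.

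Mdm2, the p53 target that closes the feedback loop, differed far less than Cdkn1a. Il1rl1+ cells had 47.6, 47.7, 44.5, 44.2, 37.4 and 30.5 CPM and naive-type cells 37.9, 35.5, 35.4, 40.8, 33.9 and 29.6 CPM. Each ratio was slightly above 1 (median log2 0.22, highest 0.30, and 0.28 over hashtags 1 to 4), and every interval included 0, so a difference of this size was not detectable at this depth.

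**Figure D2:**
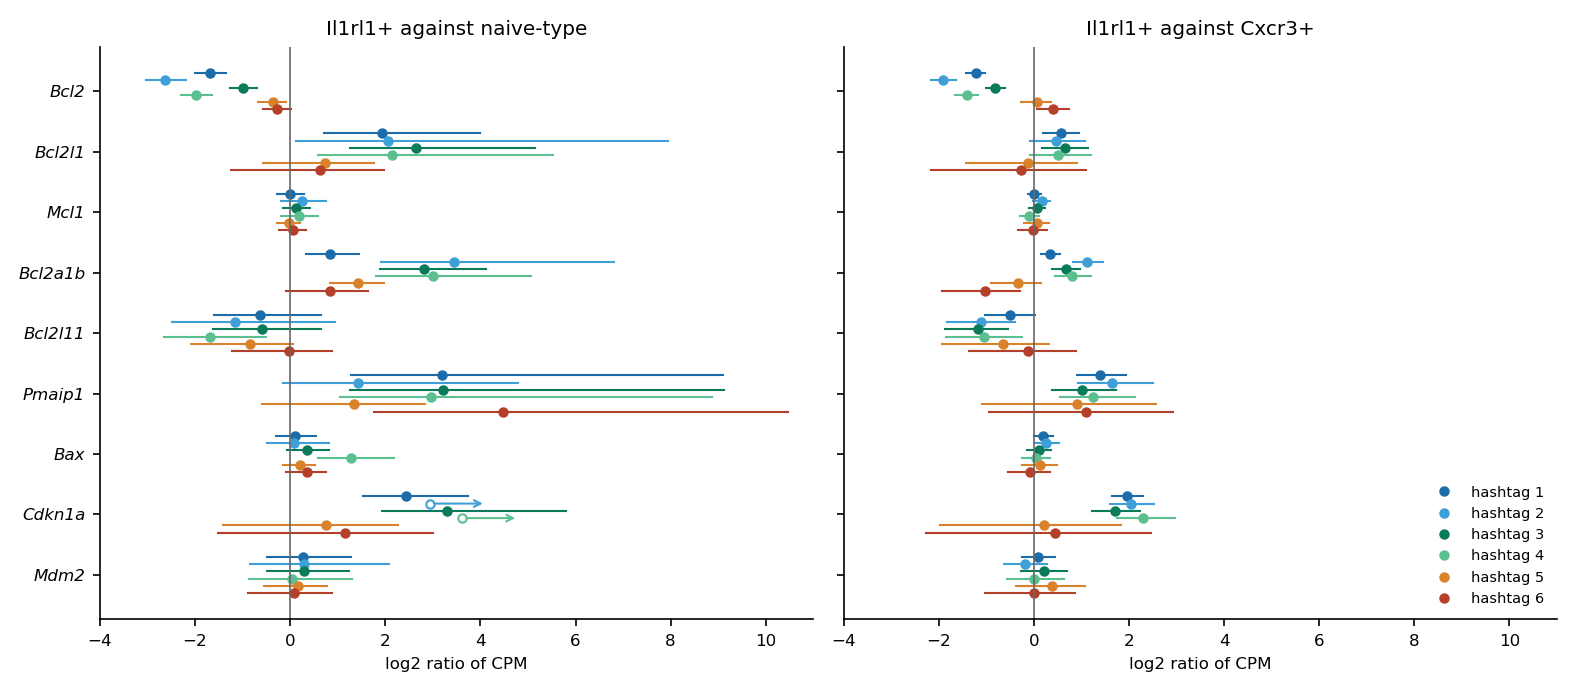
Log2 ratio of CPM (horizontal axes) for each member (vertical axis) in Il1rl1+ against naive-type cells and against Cxcr3+ cells, 1 point per hashtag with its 95% counting interval; open points with arrows are lower bounds against a sum with no UMI. Bcl2 lies left of 0 and Cdkn1a and Pmaip1 right of 0 in hashtags 1 to 4 in both panels, while the Bcl2 points of hashtags 5 and 6 lie above 0 against Cxcr3+ cells.

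The counts of members were read against all genes. A gene was called when its ratio was at least 2-fold in 1 direction in every hashtag compared, among genes at 10 CPM or more on a side. A gene could thus enter through the side where it was high. Pmaip1 was the 1 member called higher in Il1rl1+ than naive-type cells, where 1.39% of 7923 genes were called higher and 0.0126% lower. Pmaip1 entered only through the Il1rl1+ side, with 19 UMIs over all naive-type cells, so its call is partly a matter of selection. That call was lost, and Cdkn1a was called in place of Pmaip1, with 2 in place of 0.5 added to each count and without cells holding other-lineage UMIs. With 2 added, the call of Cdkn1a rests on the added count in hashtag 5. Il1rl1+ and naive-type cells there had 6.24 and 4.02 CPM, from 4 and 16 UMIs, less than 2-fold apart. By sign alone, 6 members (Bcl2l1, Bcl2a1b, Pmaip1, Bax, Cdkn1a and Mdm2) were higher in all 6 hashtags, a state reached by 17.9% of genes, and 2 (Bcl2 and Bcl2l11) were lower, a state reached by 4.87%. The median of the member medians was 0.28, against 0.15 over all genes. With hashtags 1 to 4 alone, Bcl2l1, Pmaip1 and Cdkn1a were called higher, where 4.7% of genes were called higher and 1.84% lower. Each of these members again reached 10 CPM only through the Il1rl1+ side. Bcl2 missed the call because its smallest difference there was -0.99.

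Against Cxcr3+ cells no member was called over 6 hashtags, where 0.113% of genes were called higher and 0.0628% lower in Il1rl1+ cells. By sign alone Pmaip1 and Cdkn1a were higher in all 6, as were 4.9% of genes, and Bcl2l11 was lower, as were 7.57%. Restricted to hashtags 1 to 4, Cdkn1a and Pmaip1 were called higher, where 2.32% of genes were called higher and 0.6% lower. Against Foxp3+ cells no member was called, where 0.0246% of genes were called higher and 0.111% lower. Foxp3+ against naive-type cells gave 1 call among the members, Cdkn1a higher, with 1.1% of genes called higher and 0.0876% lower. The lowest log2 ratio of that call was 1.004, on the threshold. It came from hashtag 6 and not from the 2 bounds for the naive-type sums without a UMI. Foxp3+ and naive-type cells of hashtag 6 had 4.59 and 3.25 CPM of Cdkn1a, from 1 and 9 UMIs, less than 2-fold apart. The call of Cdkn1a in Foxp3+ cells therefore rests on the added count in that hashtag. Cdkn1a also reached 10 CPM in that comparison only through the Foxp3+ side. The call was lost with hashtags taken from the top tag and where classes may share cells.

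No member was called in the other comparisons with naive-type cells. For Cxcr3+ cells 0.927% of genes were called higher and 0.257% lower, for Cxcr5+ cells 1.35% and 0.191% (4 hashtags, 7 of 9 members at 10 CPM or more), and for Klrd1+ cells 0.664% and 0.0133% (5 hashtags, 8 of 9 members). These 5 comparisons share the naive-type sums, and those with Il1rl1+ cells share that side.

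The wider set of apoptosis and p53 genes shows what surrounded the members. Of 58 other listed genes measured in Il1rl1+ against naive-type cells, 3 were called higher and none lower over 6 hashtags, where 1.39% of all genes were called higher and 0.0126% lower. These were Bcl2a1d, the A1 copy above, Birc5 (survivin, a mitotic gene) and Il9r (the IL-9 receptor), all with 1 or 2 naive-type sums at 0 so that their fitted ratios are not given. Restricted to hashtags 1 to 4, where 4.7% of all genes were called higher, 8 of 58 were called higher, these 3 among them. Il2ra, the high-affinity IL-2 receptor subunit and a Treg marker, had the largest ratio among those without a 0 (median log2 3.90, range 3.13 to 5.11), followed by Plk3 (2.4997, 1.91 to 3.01), Btg2 (1.78, 1.36 to 2.03) and Traf1 (1.46, 1.10 to 1.79). Plk3 and Btg2 are p53 targets that also respond early to stimulation, and Traf1 is a signalling adaptor of TNF receptors. Il2ra (3.08, 2.70 to 3.28) and Il9r (1.92, 1.75 to 2.06) were also called higher against Cxcr3+ cells there. Il7r, the IL-7 receptor that supports naive cells, was below 0 over its whole range, though barely at the median (-0.03, -0.70 to -0.01).

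The other classes also had called genes of the wider set against naive-type cells over all hashtags compared, none of them lower. Il2rb, the IL-2 receptor chain that transmits the signal, was called in 4 of the 5 classes: Foxp3+ (2.02, 1.57 to 3.11), Cxcr3+ (1.96, 1.46 to 2.89), Cxcr5+ (1.32, 1.08 to 1.59) and Klrd1+ cells (1.46, 1.09 to 2.99). Foxp3+ cells also had Il2ra (2.94, 2.25 to 4.42), Plk3 (1.70, 1.11 to 2.76) and the cyclin-dependent kinase inhibitor Cdkn2c, the last with a naive-type sum at 0. Cxcr3+ cells had Birc5, again with a naive-type sum at 0. Cxcr5+ cells had Bcl2a1d (2.47, 1.62 to 3.43).

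The p53 targets did not all differ in 1 direction, though a larger share of them than of all genes was higher in hashtags 1 to 4. Of 36 listed, 23 were measured in hashtags 1 to 4, and 5 were called higher and none lower, where 4.7% of all genes were called higher and 1.84% lower. The 5 were Cdkn1a, Pmaip1, Plk3, Btg2 and Rps27l (1.37, 1.09 to 1.72). Cdkn1a and Pmaip1 are also among the 9 members, so the share of this list is not independent of how the members were chosen. By sign, 11 of 23 were higher in all 4 hashtags and 2 lower, where 27.2% of all genes were higher and 15.8% lower, and the list's median log2 ratio was 0.53 against 0.13 over all genes. Ccng1, which encodes cyclin G1, was higher (0.65, 0.30 to 1.37), whereas Fas, the death receptor, was lower (-0.79, -0.97 to -0.32). Of 7 measured genes for p53 and its regulators, none was called, and by sign 1 (Mdm2) was higher and 3 were lower in all 4 hashtags, beside the same shares of all genes. Trp53 had a median log2 ratio of -0.20 (-0.55 to -0.11), and Atm, a kinase that senses DNA breaks, one of -0.60 (-1.01 to -0.38). Of the other BH3-only genes, Bad was higher in each of the 4 hashtags (0.99, 0.84 to 1.15), and Bbc3, which encodes the p53 target Puma, had no common sign (0.03, -0.38 to 1.29). Apaf1, the scaffold of the apoptosome, was higher (1.10, 0.80 to 1.46) without a call.

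Genes of the immediate-early and heat-shock response were high where Cdkn1a was high. This list of 14, which holds Fos, Fosb, Jun, Junb, Jund, Atf3, Egr1, Ier2, Ier3, Dusp1 and 4 heat-shock genes, is known to respond to tissue digestion as well as to stimulation. Its summed level in Il1rl1+ cells was 10064 to 15100 CPM in hashtags 1 to 4 and 1765 and 1943 CPM in hashtags 5 and 6. Naive-type cells had 2360 to 3593 CPM and then 1553 and 1492 CPM, Cxcr3+ cells 4220 to 5624 CPM and 1717 to 1762 CPM. Of the 14, 11 were called higher in Il1rl1+ than naive-type cells of hashtags 1 to 4, where 4.7% of all genes were called higher. Fos was higher by 3.35 on the log2 scale (3.15 to 3.72). The part of this response in the levels of Cdkn1a, Bcl2 and the other members was not tested. Over all 6 hashtags only Ier3 was called (1.95, 1.13 to 3.70), where 1.39% of all genes were called higher. Against Cxcr3+ cells of hashtags 1 to 4, 8 of 14 were called higher, where 2.32% of all genes were. In hashtag 3 the Il1rl1+ cells had both the lowest list level and the lowest Cdkn1a of hashtags 1 to 4, and also the highest Bcl2. Those of hashtag 4 had more of both the list and Bcl2 than those of hashtag 1 (14677 and 135 CPM against 11732 and 97.9 CPM). Naive-type and Cxcr3+ cells also had more of both in hashtags 1 to 4 than in hashtags 5 and 6. Mitochondrial reads took 2.11 to 2.22% of UMIs in Il1rl1+ cells of all 6 hashtags and 1.97 to 2.81% in naive-type cells. The proliferation markers summed to 359 to 645 CPM in Il1rl1+ cells and 156 to 239 CPM in naive-type cells of hashtags 1 to 4.

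**Figure D3:**
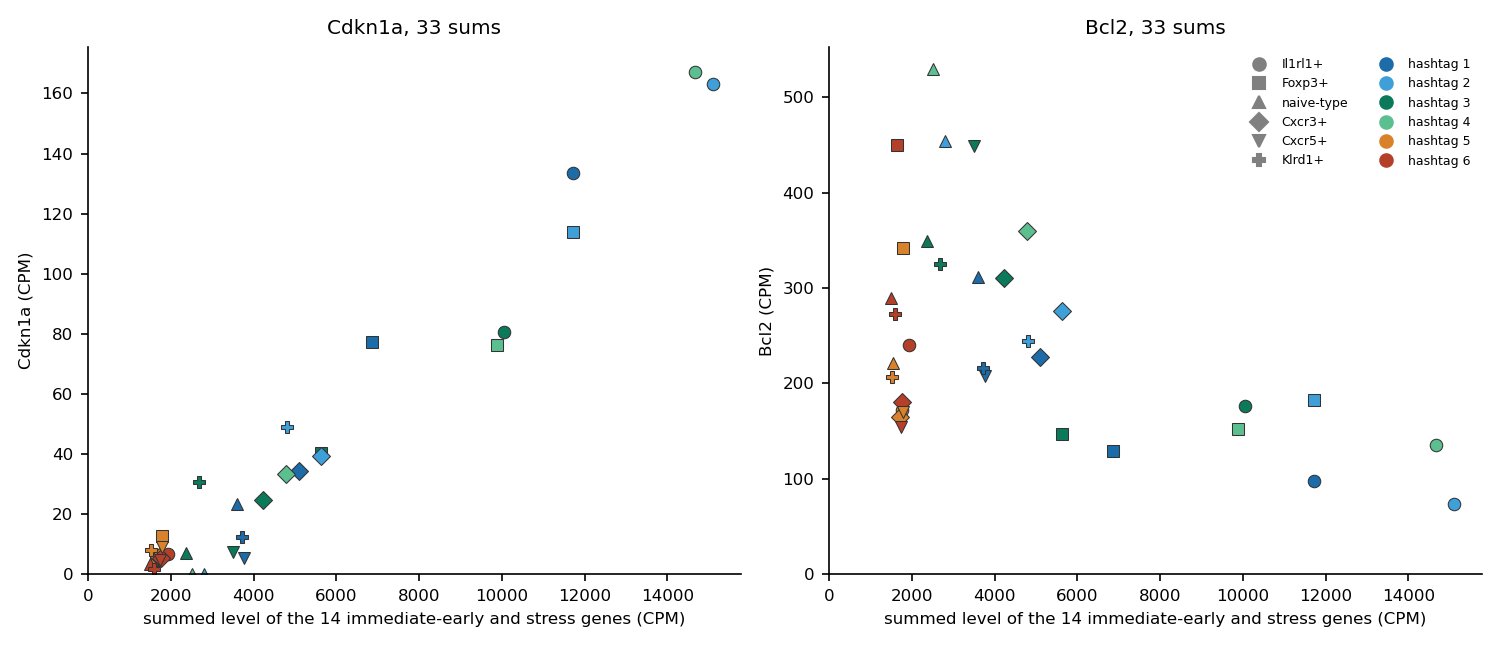
Level of Cdkn1a and of Bcl2 (vertical axes, CPM) against the summed level of the 14 immediate-early and heat-shock genes (horizontal axes, CPM), 1 point for each of 33 sums of a class (shape) in a hashtag (colour). The Il1rl1+ sums of hashtags 1 to 4 lie at 10064 to 15100 CPM on the horizontal axis, and the 2 sums highest for Cdkn1a, at 163 and 167 CPM, lie farthest right.

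The genes most alike in pattern differed from member to member. Over the 33 sums and 5407 genes, Pearson's r of log2(CPM + 10) was highest for Cdkn1a with Jund (0.94), Hilpda (0.94) and Zfp36 (0.93), for Pmaip1 with Furin (0.88), Ltb4r1 (0.87) and Gata3 (0.85), and for Bcl2a1b with S100a11 (0.88), Ptpn13 (0.87) and Cers4 (0.85). Bcl2l1 was most like Serinc3 (0.87), S100a10 (0.86) and Sfr1 (0.86), and Bcl2 most like Grap2 (0.76), Crlf3 (0.76) and Cmah (0.75). Mcl1 was nearest to Myc (0.81), Dpysl2 (0.73) and Inpp4b (0.73), and Bax to H3f3b (0.80), Rab1a (0.75) and Rangap1 (0.74). The lowest of the first-ranked values belonged to Bcl2l11 with Pms2 (0.73, then Gm29243 and Arl4c at 0.72 and 0.71) and to Mdm2 with P4hb (0.66, then Birc2 and Hnrnpll at 0.63 and 0.62). Among the members themselves, Cdkn1a went with Bcl2l1 (0.77) and Pmaip1 (0.72) and opposite to Bcl2 (-0.61), while Mdm2 and Cdkn1a were only loosely related (0.27). The sums share 1 library, and classes of a hashtag share its cells' origin, so these values describe these sums and carry no p.

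Within the Il1rl1+ cells of hashtags 1 to 4, cells with a Cdkn1a UMI differed from cells without one, a split made after the levels had been seen. There were 199, 208, 80 and 163 cells with a UMI and 544, 390, 353 and 384 without. Cells with a UMI were deeper, with medians of 3679 to 3963 UMIs against 3005 to 3421, and both sides were scaled to CPM. Bcl2 was lower in the cells with Cdkn1a in 4 of 4 hashtags (median log2 ratio -0.71, range -0.91 to -0.60). Bcl2a1b was higher in 4 of 4 (0.50, 0.34 to 0.73), as were Mdm2 (0.32, 0.16 to 0.62) and, barely, Mcl1 (0.04, 0.01 to 0.10). Pmaip1 (0.41, -0.52 to 0.91), Bcl2l1 (0.06, -0.26 to 0.56), Bax (0.12, -0.0039 to 0.24) and Bcl2l11 (-0.39, -1.80 to 0.38) had no common sign.

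By sign in all 4 hashtags, 12.5% of 7963 genes were higher in the cells with Cdkn1a and 8.93% lower. Of 25 p53 targets measured, 11 were higher and 1 lower, with a median of 0.22 against 0.02 over all genes. Phlda3, an Akt inhibitor and p53 target, was higher by 1.27 (0.61 to 1.91) from 38 and 34 UMIs, Ccng1 by 0.43 (0.09 to 0.69) and Gadd45b by 0.65 (0.34 to 0.81), whereas Zmat3, another p53 target, was lower (-0.40, -0.90 to -0.0051). Phlda3 reached the limit of 10 CPM only through the cells with Cdkn1a, where it was higher, so its large ratio is partly a matter of selection. Of the 14 immediate-early and heat-shock genes 9 were higher and none lower, with a median of 0.21, and their part in this split was not tested. Areg was higher by 0.97 (0.67 to 1.15), while the level of Il1rl1 differed by 0.01 (-0.01 to 0.10).

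**Figure D4:**
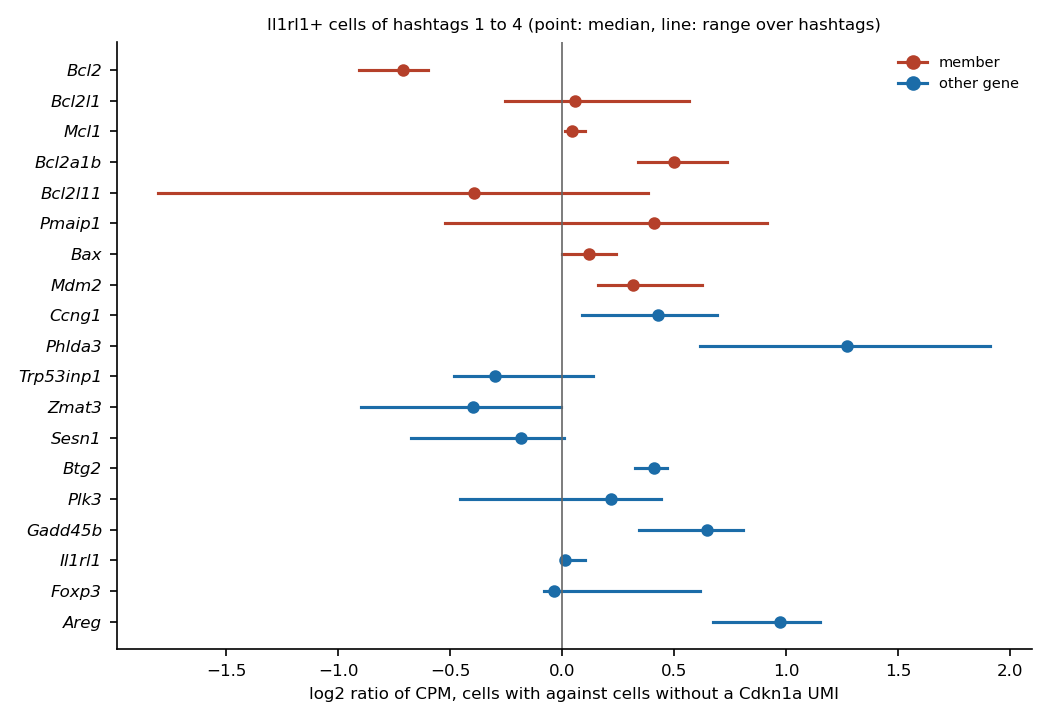
Log2 ratio of CPM (horizontal axis) in Il1rl1+ cells with a Cdkn1a UMI against Il1rl1+ cells without one, for members (red) and other genes (blue); points are medians and lines ranges over hashtags 1 to 4. Bcl2 lies left of 0 over its whole range (-0.91 to -0.60), and Phlda3 (1.27) and Areg (0.97) lie farthest right. Phlda3 reached the limit of 10 CPM only through the cells with Cdkn1a.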

How the data were processed

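The authors deposited untransformed UMI counts for 22960 barcodes of the expression library and tag counts for 149999 barcodes of the hashtag library, made with 10x Genomics 3′ v3.1 chemistry per the labels. Cell Ranger 6.0, Seurat 3 and the build mm10 come from the submitters' processing notes, whereas the matrix header names cellranger 4.0.0, and which version made the counts was not settled here. The 2 libraries share 22952 barcodes, as they come from the same cells. Seurat 5.3.0 in R 4.3.3 assigned hashtags 1 to 6 by its HTODemux function at a quantile of 0.99, which gave 14879 singlets, 5804 doublets, which were left out, and 2269 without a call. Doublets within 1 hashtag are not seen. Cells needed 500 genes, under 10% mitochondrial UMIs, and for the T cell gate at least 2 UMIs of 8 T cell genes and more of these than of other-lineage markers. CPM, ratios and intervals used Python 3.11.15, numpy 2.4.6, scipy 1.17.1 and pandas 2.3.3. Of the steps, only the comparison of classes was tested on simulated data. The genes changed there had higher levels than Pmaip1, Cdkn1a and Bcl2l1 have in naive-type cells, so calls at such low counts were not tested. Named are all 9 members, for each comparison up to 4 called genes of the wider list in each direction by median, and for each member the 3 genes most alike; other listed genes named, and the split by Cdkn1a, were chosen after their values were seen. The rule would name 1 more gene, which is not reported here. The members and lists were chosen with earlier results of these data known. Promoter windows are RefSeq's (GRCm38.p6). Alternatives covered the hashtag call, cell filters, class rules, the added count and leaving out hashtags; the restriction to hashtags 1 to 4 was added after the data were seen.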

Additional observations from a re-analysis of the deposited data

Results flagged for a closer look

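Only hashtags 1 to 6 carried more than 1000 counts. Hashtags 7, 8, 9 and 10, which entered no comparison, had 278, 10, 172 and 7 counts over all barcodes, each above the limit of 3 counts. Cells were not assigned to them.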

How the results depend on the processing

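Of 918 member ratios recomputed under other settings, 897 moved by less than 1 SD over hashtags, 21 moved further and none of the called ones changed sign; of 270 member levels in Il1rl1+ cells, 260 stayed within their counting interval. The number of members called in Il1rl1+ against naive-type cells was 1 in the main setting and 2 with hashtags taken from the top tag (Pmaip1 and Cdkn1a). With an added count of 2 or without cells holding other-lineage UMIs, the 1 member called was Cdkn1a in place of Pmaip1. With an added count of 2 that call rests on the added count in hashtag 5, as described above. For Foxp3+ against naive-type cells the 1 member called in the main setting was Cdkn1a, which rests on the added count in hashtag 6. In that comparison the number called was 0 with the top tag and 2 where classes may share cells (Bcl2l1 and Bcl2a1b). For Cxcr3+, Cxcr5+ and Klrd1+ cells against naive-type cells it went from 0 to 1 with at least 3 naive genes (Bcl2a1b each time) and to 1 without cells holding other-lineage UMIs (Bcl2l1, Bcl2a1b and Pmaip1, in that order). For Il1rl1+ against Cxcr3+ cells it went from 0 to 1 with 2 other Treg markers required (Pmaip1). Apart from leave-one-out, all genes called over the settings ran from 83 to 532 for Il1rl1+ against naive-type cells. They ran from 95 to 274 for Foxp3+, 59 to 180 for Cxcr3+, 115 to 757 for Cxcr5+ and 38 to 276 for Klrd1+ cells. For Il1rl1+ against Cxcr3+ cells they ran from 12 to 234. The share in each single setting is not given, so these changes are not read as results about the members. In hashtags 1 to 4 only, a setting chosen after seeing the data, the counts were 3, 2 (Cdkn1a higher and Bcl2 lower), 1, 2 and 1 for Il1rl1+, Foxp3+, Cxcr3+, Cxcr5+ and Klrd1+ against naive-type cells and 2 for Il1rl1+ against Cxcr3+ cells. The Cxcr5+ and Klrd1+ comparisons then rest on 2 and 3 hashtags. All genes called rose with them, from 111 to 532, 95 to 274, 92 to 180, 121 to 656 and 51 to 276 against naive-type cells and from 14 to 234 for Il1rl1+ against Cxcr3+ cells. Leaving out 1 hashtag at a time gave 1 to 2 members for Il1rl1+ and for Foxp3+ against naive-type cells, 0 to 1 for Cxcr3+ and Cxcr5+ cells and for Il1rl1+ against Cxcr3+ cells, and 0 for Klrd1+ against naive-type and Il1rl1+ against Foxp3+ cells. Of all genes, it called 121 to 205 for Il1rl1+, 109 to 148 for Foxp3+, 97 to 118 for Cxcr3+, 184 to 267 for Cxcr5+ and 55 to 88 for Klrd1+ against naive-type cells, and 13 to 59 for Il1rl1+ against Cxcr3+ cells. Without hashtag 1, Bcl2a1b was called higher in Foxp3+, Cxcr3+ and Cxcr5+ cells, and without hashtag 5, Cdkn1a was called in Il1rl1+ against naive-type cells, Pmaip1 in Il1rl1+ against Cxcr3+ cells and Pmaip1 in Cxcr5+ cells. The fewer sums a call must pass, the more genes pass it; other causes were not tested. The Bcl2 ratio of Il1rl1+ to naive-type cells kept its sign in 14 of 14 planned settings (-1.68 to -0.77), as did Cdkn1a (2.36 to 3.63, not bounds) and Pmaip1 (2.10 to 3.73). Depth limits Pmaip1, Bcl2l1 and Cdkn1a most, where naive-type sums of hashtags 1 to 4 hold 0 to 8 UMIs. No paired analysis was possible because the labels hold 1 expression library and no replicate samples to pair; the ratios within a hashtag pair classes of cells, not samples.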

Other observations

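Outside the T cell gate, 396 cells with a hashtag remained, and some members differed there from the T cells. In 144 of them most other-lineage UMIs came from endothelial markers. These cells had 157 CPM of Cdkn1a (95% interval 131 to 186), 98.0 CPM of Bcl2l1 (77.7 to 122), 33.1 CPM of Bcl2 (21.8 to 48.1) and 11.02 CPM of Bcl2a1b (5.04 to 20.9). All T cells together had 42.7 CPM of Cdkn1a, 25.7 CPM of Bcl2l1, 223 CPM of Bcl2 and 90.6 CPM of Bcl2a1b. The intervals of Mcl1 (317 against 289 CPM), Bax (124 against 135 CPM), Mdm2, Bcl2l11 and Pmaip1 overlapped between these cells with endothelial markers and all T cells. In 87 cells with mostly macrophage markers Mcl1 stood at 456 CPM (397 to 520) and Cdkn1a at 80.8 CPM (57.4 to 110). These sums pool all hashtags and cover counting error only.

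The 4359 T cells that entered no class had 264 CPM of Bcl2 (255 to 273) and 22.3 CPM of Cdkn1a (19.8 to 25.0), and Mcl1 at 283 CPM (274 to 292), with hashtags pooled.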
